A study of Mus musculus with 11 samples.

Results

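Keratins are the intermediate filament proteins of epithelial cells, and 8 of them were followed here in the thymic epithelium of NOD mice: the basal keratins Krt5, Krt14, Krt15 and Krt17 and the simple keratins Krt7, Krt8, Krt18 and Krt19. They were chosen by gene symbol, and all 8 were found among the 56691 genes of the count table. NOD is an inbred strain prone to autoimmune diabetes, and every group carried that background. Aire is the regulator that lets medullary thymic epithelium transcribe tissue-restricted genes, and R249C is a missense allele of it. Thymic cells of mice aged 4 to 8 weeks were depleted of CD45-bearing cells and sorted for EpCAM, and total RNA was sequenced from 3 libraries with both Aire copies wild-type (WT/WT), 5 heterozygotes (WT/R249C) and 3 homozygotes (R249C/R249C). The titles number the libraries as biological replicates within each genotype, but the labels do not give the number of mice behind a library. The p-values therefore refer to the spread between these libraries, which may be partly technical. The WT/R249C replicates 4 and 5 carry the heterozygous genotype in their titles and the homozygous one in their genotype field. They were grouped by title, and they are the only heterozygotes of the second of 2 batches.

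A keratin filament is built from pairs of one type I and one type II chain, and a chain without a partner is degraded. Krt5, Krt7 and Krt8 are type II, and Krt14, Krt15, Krt17, Krt18 and Krt19 are type I. The genes of Krt5, Krt7, Krt8 and Krt18 lie on chromosome 15 and those of Krt14, Krt15, Krt17 and Krt19 on chromosome 11. Krt5 pairs with Krt14 in basal cells of stratified epithelia, and Krt8 pairs with Krt18 in simple epithelia. In the thymus, antibodies to Krt5 and Krt14 are widely used to mark the medulla and antibodies to Krt8 and Krt18 to mark the cortex, although part of the medulla also stains for Krt8. Each library here holds cortex and medulla together, so a smaller number of cells of one kind and less transcript per cell cannot be told apart.

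Epcam, the marker used in the sort, ran from 355 to 521 CPM (counts of a gene scaled to a common library total) and Ptprc, which encodes CD45, from 0.217 to 26.2 CPM. Library totals ran from 60560348 to 182319976 counts. The labels give 2 batches: 7 libraries in batch A, which held WT/WT replicate 1, WT/R249C replicates 1 to 3 and all R249C/R249C libraries, and 4 in batch B. The Aire transcript ran from 174 to 858 CPM. A missense allele need not alter its transcript, so this level does not check the genotype. Markers of other cell types were present, and those of B cells split by genotype. Summed over 7 genes, B cell markers ran from 804 to 1938 CPM in WT/WT, from 92.2 to 336 CPM in the heterozygotes and from 208 to 371 CPM in the homozygotes. All wild-type libraries thus lay above all mutant ones. Most of this sum was 1 gene, Igkc, with means of 1402.5 CPM in WT/WT, 119 CPM in the heterozygotes and 251 CPM in the homozygotes. Of all tested genes, 1.83% lay wholly below WT/WT in the heterozygotes and 4.68% in the homozygotes. Another of the 7, Ighm, overlapped between WT/WT (17.3 to 29.0 CPM) and the heterozygotes (4.34 to 20.5 CPM). Summed over 11 genes, thymocyte markers ran from 164 to 223 CPM in WT/WT, from 79.2 to 199 CPM in the heterozygotes and from 94.2 to 152 CPM in the homozygotes. Summed over 7 genes, fibroblast markers ran from 861 to 2386 CPM, with overlapping genotypes in the sum, though single markers differed more, as given below.

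RefSeq promoter windows of GRCm38.p6, from 250 bases before to 50 after an annotated start, were held for 5 of the 8 genes. The windows of the Krt5 gene, of the neighbours Krt8 and Krt18, and of Krt7 are shown because the sections on levels turn on how these genes move relative to each other. The motif of the core promoter box TATAAA was searched on both strands and occurs in 13.6% of 32851 promoter windows of this length. The GC box GGGCGG occurs in 35.7% of them. The motif CACCC, bound by Krüppel-like factors, occurs in 57.5%. The AP-1 motif TGANTCA occurs in 7.81%. Capitals mark the matches on either strand, printed 5′ to 3′ on the strand of the gene.
Krt5, chr15:101712856-101713155, minus strand: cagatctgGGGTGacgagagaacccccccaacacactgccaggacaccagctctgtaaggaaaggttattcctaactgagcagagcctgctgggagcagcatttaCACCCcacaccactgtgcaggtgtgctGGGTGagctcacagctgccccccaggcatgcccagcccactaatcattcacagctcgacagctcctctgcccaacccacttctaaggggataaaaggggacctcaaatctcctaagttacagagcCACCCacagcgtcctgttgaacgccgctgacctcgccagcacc
Krt8, chr15:102004293-102004592, minus strand: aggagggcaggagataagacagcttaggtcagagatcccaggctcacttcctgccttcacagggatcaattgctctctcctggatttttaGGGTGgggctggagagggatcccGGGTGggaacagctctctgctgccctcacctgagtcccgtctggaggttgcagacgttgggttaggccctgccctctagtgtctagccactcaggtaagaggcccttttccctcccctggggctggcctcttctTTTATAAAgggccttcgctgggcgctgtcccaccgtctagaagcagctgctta
Krt18, chr15:102027966-102028265, plus strand: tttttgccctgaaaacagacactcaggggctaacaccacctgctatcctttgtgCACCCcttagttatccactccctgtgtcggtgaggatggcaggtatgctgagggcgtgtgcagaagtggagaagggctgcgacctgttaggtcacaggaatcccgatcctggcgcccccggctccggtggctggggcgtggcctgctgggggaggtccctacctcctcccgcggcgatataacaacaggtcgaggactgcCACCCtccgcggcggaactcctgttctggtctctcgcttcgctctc
Krt7, chr15:101412153-101412452, plus strand: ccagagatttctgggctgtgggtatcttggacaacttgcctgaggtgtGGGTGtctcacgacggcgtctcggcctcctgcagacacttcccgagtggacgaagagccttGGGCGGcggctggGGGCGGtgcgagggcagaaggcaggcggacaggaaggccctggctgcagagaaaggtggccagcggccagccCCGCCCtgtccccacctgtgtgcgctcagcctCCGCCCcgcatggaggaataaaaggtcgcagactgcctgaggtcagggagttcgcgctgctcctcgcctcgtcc
The Krt8 window held TATAAA in 2 overlapping matches, one per strand, and Krt5, Krt18 and Krt7 held none. The matches in Krt8 began 3 bases and 1 base before the annotated start and ran across it. Krt7 held 4 GC boxes and the other windows shown held none. CACCC matched 4 times in Krt5, 2 times each in Krt8 and Krt18 and 1 time in Krt7. None of these windows held TGANTCA. A match describes letters in the window, and nothing here measured binding to it.

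Per kilobase of coding sequence, Krt18 was the most abundant of the 8, at a median of 1217 CPM per kilobase over the 11 libraries (range 1066 to 1715). Krt17 followed at 1018 CPM per kilobase (356 to 1338), Krt8 at 613 (291 to 908), Krt14 at 591 (372 to 965) and Krt5 at 489 (339 to 904). Krt7 had a median of 291 CPM per kilobase (195 to 394), Krt19 of 143 (58.6 to 232) and Krt15 of 66.9 (36.2 to 120.0). Every neighbouring pair in this order had overlapping ranges. Krt17 exceeded Krt8 in all 11 libraries, Krt5 exceeded Krt7 in 11 and Krt7 exceeded Krt19 in 11. Krt19 exceeded Krt15 in 10, and Krt18 exceeded Krt17 and Krt14 exceeded Krt5 in 9 libraries each. Krt8 and Krt14 stood in this order in 7 of 11, so they do not differ beyond their spread. With the length of all annotated exons in place of coding length, the Krt7 median fell to 56.6 CPM per kilobase. It then stood below Krt19 at 93.1 and close to Krt15 at 51.8, so the order of Krt7 and Krt19 depends on the length used. Parts of Krt8 transcripts are also found elsewhere: 29.7% of its 50-base stretches occur in another gene, 26.9% in the pseudogene Krt8-ps. For Krt14 this share was 14.4%, for Krt5 12.2%, for Krt17 3.99%, and for each of the other 4 it was at most 0.72%.

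Among the basal keratins, Krt5 is the type II chain of basal keratinocytes and of medullary epithelium. It stood at 799.7, 851 and 654 CPM in WT/WT replicates 1 to 3 and at 668, 889.5 and 1180.1 CPM in the homozygous replicates 1 to 3. The heterozygotes, replicates 1 to 5, held 1029, 1573, 590.3, 756 and 907 CPM. Both the highest and the lowest library were heterozygous, and the groups overlapped.

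Krt14, the type I partner of Krt5, measured 577, 806 and 686 CPM in WT/WT and 692, 925 and 925 CPM in R249C/R249C. The 5 WT/R249C libraries held 869, 1401, 539.9, 944 and 858 CPM. The extremes fell in the same libraries as for Krt5, WT/R249C replicate 2 at the top and replicate 3 at the bottom. The Krt5 to Krt14 ratio stayed between 0.801 and 1.39 in all libraries.

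Krt17 is a type I keratin of skin appendages that is induced in injured epidermis. Its WT/WT libraries read 463, 1171 and 1367 CPM and its R249C/R249C libraries 1078, 909 and 1579.8 CPM. WT/R249C libraries read 1738, 1322, 816, 1423 and 1353 CPM. WT/WT replicate 1 was the lowest of all 11, below every mutant library, while the other WT/WT libraries lay within the mutant range.

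Krt15 is a type I keratin of basal and progenitor cells in stratified epithelia. It was 49.5, 104 and 86.5 CPM in WT/WT, 97.7, 138, 89.5, 94.9 and 91.5 CPM in WT/R249C, and 52.6, 75.9 and 164 CPM in R249C/R249C. The homozygotes spanned nearly the whole range of the series, and 4 of the 5 heterozygotes lay within 89.5 to 97.7 CPM.

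Of the simple keratins, Krt18 is the type I partner of Krt8. It read 1377, 1352 and 1679 CPM in WT/WT and 1735, 1544 and 1398 CPM in R249C/R249C. WT/R249C libraries read 1502, 1391, 1551, 2176 and 1837 CPM. Its coefficient of variation over the 11 libraries, 15.6%, was the smallest of the 8, and its highest values were the heterozygotes of batch B, the replicates 4 and 5 with contradicting labels.

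Krt8, the type II simple keratin, measured 428, 699 and 1105 CPM in WT/WT and 813, 815 and 1160.2 CPM in R249C/R249C. WT/R249C libraries held 1222, 901, 703, 1334 and 1278 CPM. WT/WT replicates 1 and 2 were the lowest of the 11, and WT/WT replicate 3 lay inside both mutant groups. The Krt8 to Krt18 ratio ran from 0.311 in WT/WT replicate 1 to 0.83 in R249C/R249C replicate 3, so these partners did not keep a fixed ratio. Krt8-ps held from 3.76% to 6.38% of the Krt8 value.

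Krt7 is a type II keratin of ductal and other simple epithelia. It was 267, 481 and 431 CPM in WT/WT, 399, 539.6, 332, 427 and 450.2 CPM in WT/R249C and 325, 390.0 and 306 CPM in R249C/R249C. Krt19, a type I keratin without the usual tail domain, was 123, 208 and 179 CPM in WT/WT, 173, 281, 70.9, 153 and 216 CPM in WT/R249C and 88.9, 166 and 236 CPM in R249C/R249C. Krt19 had the largest coefficient of variation of the 8, 36.3%. For every one of the 8 keratins the 3 genotypes overlapped, and the lowest single count was 4294, for Krt19 in WT/R249C replicate 3.

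**Figure D1:**
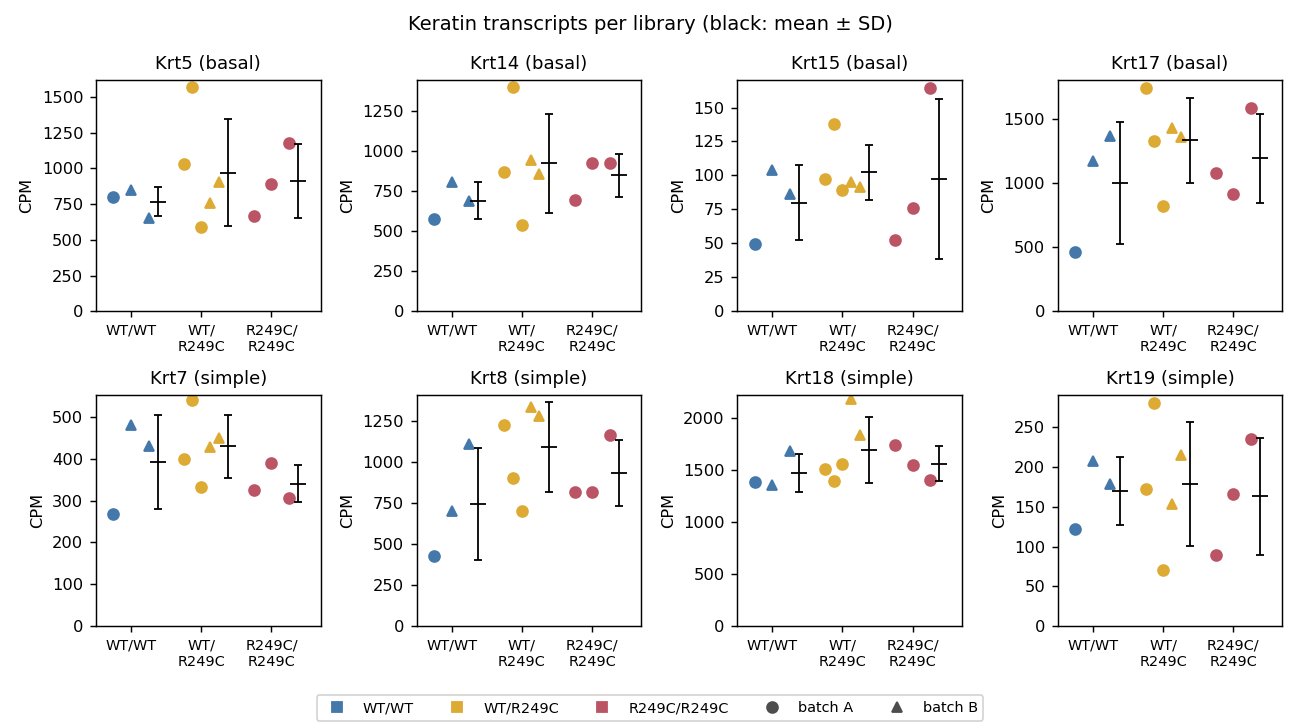
Level of each keratin in CPM by genotype. Circles are batch A libraries and triangles batch B libraries, ordered by replicate number within a genotype, and black bars give the mean ± SD of the 3 wild-type, 5 heterozygous and 3 homozygous libraries. The genotypes overlap for all 8 genes, and WT/WT replicate 1 is the lowest library for Krt8 and Krt17.

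Differences between genotypes were tested with edgeR's quasi-likelihood test on all 11 libraries with batch as a term, with Benjamini-Hochberg adjustment over 26980 genes. None of the 8 keratins was called in R249C/R249C against WT/WT, where the share of all tested genes called was 0%, nor in WT/R249C against WT/WT, also 0%. At an unadjusted p under 0.05 edgeR listed 865 genes (3.21%) in the homozygous and 940 genes (3.48%) in the heterozygous comparison, and 1 of the 8 keratins, Krt8, in each. DESeq2 called 408 genes (1.51%) and 276 genes (1.02%), none of them among the 8, and limma voom called 0. No keratin had groups without overlap, against 3.42% of genes without overlap and higher and 4.68% lower in the homozygotes, and 1.1% and 1.83% in the heterozygotes. Between the mutants of batch A these shares were 3.45% and 5.41%, and between batches 0.297% and 0.241%, again with no keratin among them.

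All 8 fitted log2 fold changes were above 0 in R249C/R249C, where 49% of all genes were, and all 8 were above 0 in WT/R249C, where 51.5% were. The median over the 8 was 0.36 in each comparison, with medians over all genes of -0.02 and 0.02. The comparisons share the WT/WT libraries, so their directions are not separate evidence. Without WT/WT replicate 1, the counts above 0 were 5 of 8 and 6 of 8, and the medians were 0.06 and 0.18. With limma voom 5 of 8 were above 0 in the homozygotes and 8 of 8 in the heterozygotes.

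Krt8 was the only one of the 8 whose 95% interval lay on one side of 0. Its mean was 744 ± 341 CPM in WT/WT (SD, n = 3), 1088 ± 273 CPM in the 5 heterozygotes and 929 ± 199.9 CPM in the 3 homozygotes. The batch-adjusted log2 fold change was 0.87 (95% interval 0.11 to 1.64) in the homozygotes and 0.80 (0.19 to 1.41) in the heterozygotes. The edgeR p, unadjusted 0.0299 and 0.0161, was 1 after adjustment in each. DESeq2 gave adjusted p-values of 0.176 and 0.108. Markers of other cells moved in both directions in the same comparisons. All 7 B cell markers lay below 0 in both comparisons with WT/WT, with medians of -1.03 and -0.996. Of 10 thymocyte markers 1 and 2 lay above 0, with medians of -0.98 and -0.84. Above 0 in the homozygotes and heterozygotes lay 6 and 5 of 7 myeloid and 4 and 6 of 6 endothelial markers. Their medians were 1.16 and 0.14 for myeloid and 0.38 and 0.42 for endothelial markers. Of 6 mesothelial markers 4 and 2 lay above 0, and of 4 parathyroid markers 2 and 1. Of 7 fibroblast markers, 1 lay above 0 in the heterozygotes against WT/WT, with a median of -1.60 and 2 at an unadjusted edgeR p under 0.05. In the homozygotes against WT/WT 5 lay above 0, with a median of 0.05. Between the mutants of batch A all 7 lay above 0, with a median of 1.41. None of the markers of these cell types was called by edgeR. Across libraries the thymocyte sum had r = -0.74 with Krt8 (permutation p = 0.00917, adjusted over 128 relations 0.107), with rho = -0.82 (p = 0.00338, adjusted 0.0865). This r was -0.84 within batch A and -0.56 without WT/WT replicate 1 and WT/R249C replicate 5. The B cell sum, most of it Igkc, had r = -0.56 with Krt8 (permutation p = 0.0692, adjusted 0.237), with rho = -0.55 (p = 0.0819, adjusted 0.318). This r was -0.77 within batch A and -0.65 without WT/WT replicates 1 and 3. The part of these cells in the keratin differences was not tested. Without WT/WT replicate 1 the intervals included 0, at 0.63 (-0.37 to 1.63) and 0.59 (-0.19 to 1.36). Without R249C/R249C replicate 3 the homozygous interval included 0 as well, at 0.72 (-0.08 to 1.51). Without the batch term the values were 0.37 (-0.40 to 1.15) and 0.58 (-0.13 to 1.29). Within batch A the differences were 1.12 and 1.11, but WT/WT replicate 1 was then the only control. Within batch B, WT/R249C stood 0.58 above WT/WT (-0.19 to 1.36) and rested on the 2 libraries with contradicting labels.

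By unadjusted p, Krt18 and Krt17 came next, each with an interval that included 0. Krt17 had log2 fold changes of 0.73 (-0.35 to 1.82) in the homozygotes and 0.68 (-0.18 to 1.55) in the heterozygotes. Krt18 had 0.34 (-0.08 to 0.77) and 0.28 (-0.06 to 0.62), the narrowest intervals of the 8. The remaining 5 ran from 0.05 (Krt7) to 0.45 (Krt15) in the homozygotes and from 0.19 (Krt19) to 0.47 (Krt14) in the heterozygotes. Krt7 had a lower mean in R249C/R249C, 340.3 ± 44.0 CPM (n = 3), than in WT/WT, 393 ± 112 CPM (n = 3), and without the batch term its log2 fold change was -0.16. Krt19 likewise had a mean of 164 CPM in the homozygotes and 169.8 CPM in WT/WT, and a log2 fold change of -0.022 without the batch term. For Krt19 the intervals reached from -1.20 to 1.51 and from -0.89 to 1.27, so a change of more than 2-fold in either direction lies within the homozygous interval.

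R249C/R249C was set against WT/R249C within the 3 and 3 libraries of batch A. No keratin was called among 23695 genes, of which edgeR called 0%, with 256 genes (1.08%) at an unadjusted p under 0.05, none of them among the 8. DESeq2 called 33 genes (0.139%), none among the 8, and limma voom called 0. Only Krt18 had a fitted log2 fold change above 0, at 0.12 (-0.31 to 0.55), while 50.8% of all genes lay above 0. Krt8 stood at -0.0018 (-0.73 to 0.72), with means of 929 CPM in the homozygotes and 942 CPM in the heterozygotes of batch A. Krt7 had the lowest value, -0.29 (-0.92 to 0.34).

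**Figure D2:**
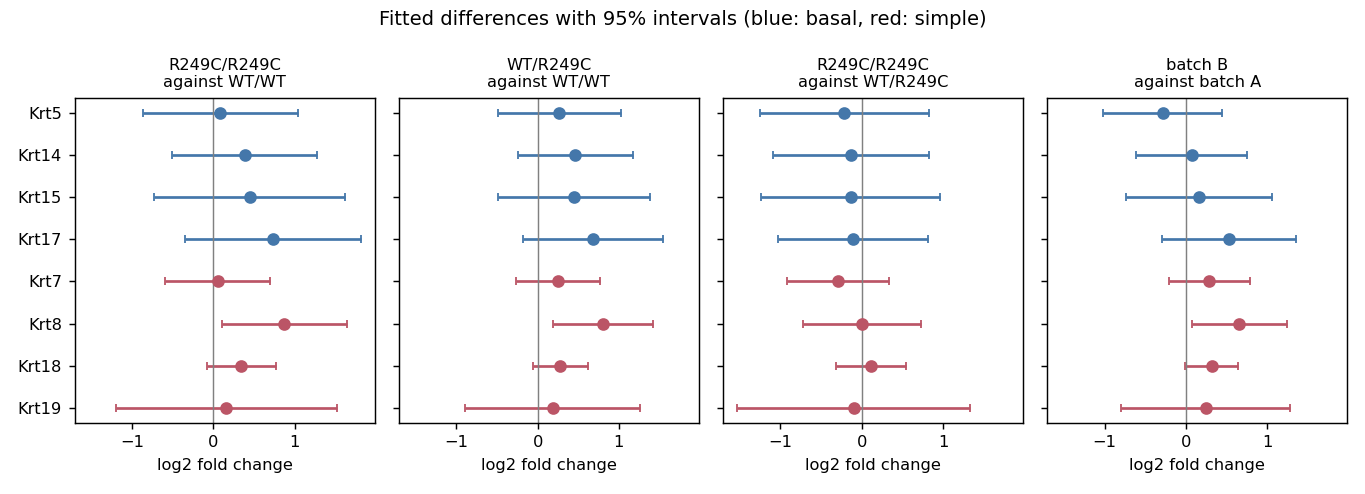
Fitted log2 fold changes of the 8 keratins with 95% intervals from edgeR in 4 comparisons, basal keratins in blue and simple keratins in red. All points lie above 0 in both comparisons with WT/WT, and Krt8 alone has intervals that exclude 0, in those comparisons and between batches.

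Batch B was set against batch A in the same fit, with genotype as a term. Krt8 was 0.66 higher on the log2 scale in batch B (0.08 to 1.24), with an unadjusted p of 0.0307 and an adjusted p of 1, both from edgeR's quasi-likelihood test. Krt18 stood at 0.32 (-0.01 to 0.64) and Krt17 at 0.53 (-0.29 to 1.36). Krt5 alone was below 0, at -0.29 (-1.02 to 0.44). Thus 7 of the 8 lay above 0, against 49.2% of all genes. None of the 8 was called by edgeR (0% of all genes, with 3.58% at an unadjusted p under 0.05), by DESeq2 (0.671%) or by limma voom (0 genes). Without WT/WT replicate 1, Krt8 was 0.51 higher in batch B, with an interval from -0.19 to 1.20. Whether the heterozygous difference itself varied between batches was tested as an interaction. Here the median of all genes was -0.37, and the values of the 8 ran from -1.24 (Krt17) to 0.43 (Krt18) with a median of -0.49. Only Krt18 lay above 0, against 39.5% of all genes. None was called by edgeR (0%), where 3.91% of genes had an unadjusted p under 0.05, or by DESeq2 (3.17%).

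Summed over the 4 basal keratins, libraries held 1889 to 4434 CPM, and over the 4 simple keratins 2195 to 4090.3 CPM. These sums are not per length and are compared between libraries only. The basal share of the summed CPM of the 8 was 45.1% to 51.7% in WT/WT, 43.4% to 58.8% in the heterozygotes and 45.7% to 55.4% in the homozygotes. The 3 ranges overlapped. The lowest and the highest share belonged to WT/R249C replicates 3 and 2, both of batch A, so the widest spread lay between libraries of one genotype and batch. Type II chains made up 33.1% to 39.9% of the summed CPM of the 8, with a coefficient of variation of 5.35%, against 10.4% for the basal share.

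Over the 11 libraries, 24 of the 28 pairs of keratins had a positive Pearson correlation of log2(CPM + 1), with a median r of 0.55. The 2 canonical partnerships differed. Krt5 and Krt14 had r = 0.85 (permutation p = 0.00109, adjusted over 28 pairs 0.0153) and rho = 0.71 (p = 0.0182, adjusted 0.128). Krt8 and Krt18 had r = 0.56 (permutation p = 0.0712, adjusted 0.151) and rho = 0.61 (p = 0.052, adjusted 0.196). Without the 2 libraries farthest from the median of Krt8, WT/R249C replicate 4 and WT/WT replicate 1, the latter r was 0.32. Within batch A the values of r were 0.92 and 0.10, and batch B held too few libraries for a value of its own. A test of the difference between the correlations was not made.

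The strongest pair crossed the classes. Krt17 and Krt8 had r = 0.91 (permutation p = 0.00026, adjusted 0.00728) and rho = 0.84 (p = 0.00189, adjusted 0.0529), and r = 0.99 within batch A. Without the 2 libraries farthest from the median of Krt17, WT/R249C replicate 3 and WT/WT replicate 1, r was 0.75. Krt19, counted as a simple keratin, followed the basal pair. Its r was 0.80 with Krt5 (permutation p = 0.00342, adjusted 0.0239), with rho = 0.78 (p = 0.00606, adjusted 0.0848), and 0.80 with Krt14 (permutation p = 0.00313, adjusted 0.0239), with rho = 0.56 (p = 0.0769, adjusted 0.196). Within batch A these were 0.98 and 0.90. Leaving out WT/R249C replicates 2 and 3, the farthest from the median of both Krt5 and Krt14, lowered r to 0.64 and 0.57, and to 0.57 for Krt5 with Krt14. So 4 of the 28 pairs passed adjustment by Pearson's r and none by rho as well. Krt18 stood apart: its r was -0.43 with Krt5, -0.20 with Krt15 and -0.21 with Krt19, with no pair passing adjustment.

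**Figure D3:**
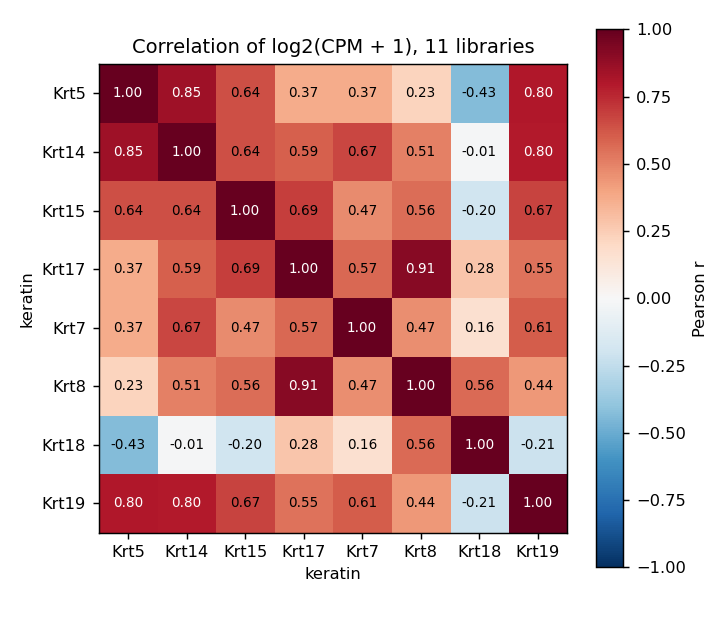
Pearson r between the 8 keratins over 11 libraries, from log2(CPM + 1), with basal keratins first and simple keratins last. Krt17 with Krt8 has the highest r, 0.91, Krt5, Krt14 and Krt19 have r of 0.80 to 0.85 with each other, and Krt18 is near or below 0 with all but Krt8, Krt17 and Krt7.

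**Figure D4:**
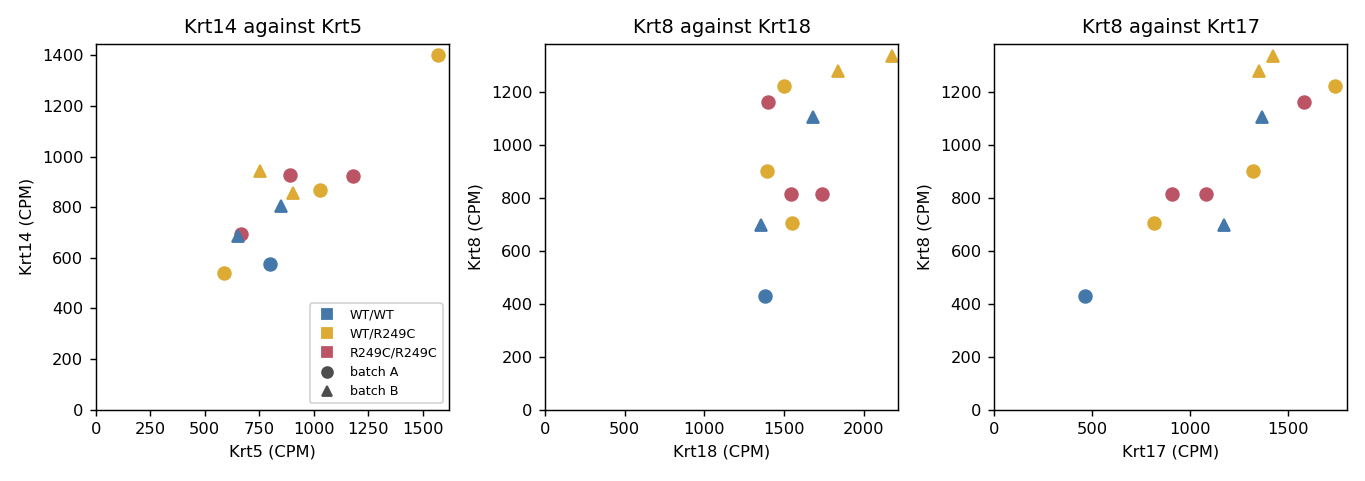
CPM of Krt14 against Krt5, of Krt8 against Krt18 and of Krt8 against Krt17, one point per library, with genotype by colour and batch by shape. Krt14 follows Krt5 and Krt8 follows Krt17, whereas Krt8 varies from 428 to 1222 CPM among the libraries with Krt18 at or below 1679 CPM.

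The ribosomal protein transcripts varied together with Krt8 and Krt17. Summed over 79 ribosomal protein genes, these ran from 9373 CPM in WT/WT replicate 1 to 21203 CPM in WT/R249C replicate 4. The sum had r = 0.92 with Krt17 (permutation p = 4e-05, adjusted over 128 relations 0.00512), with rho = 0.90 (p = 0.00043, adjusted 0.055). With Krt8 it had r = 0.88 (permutation p = 0.00028, adjusted 0.012) and rho = 0.83 (p = 0.0026, adjusted 0.0865). Within batch A these values of r were 0.95 and 0.96, and without WT/R249C replicate 3 and WT/WT replicate 1 they were 0.78 and 0.73. The other 6 keratins also had positive r with this sum, none passing adjustment: 0.68 for Krt14, 0.66 for Krt15, 0.64 for Krt19, 0.58 for Krt7, 0.43 for Krt5 and 0.36 for Krt18. Within batch A these ran from 0.51 to 0.72, except for Krt18 at -0.10. Whether the relation differed between keratins was not tested. The share of nuclear counts on genes with under 2000 bases of annotated exons was 15.4% to 20.8%. Krt17 and Krt8, with 1551 and 1958 such bases, are themselves counted in this share, so their relations to it are in part those of a part to its whole. The share had r = 0.89 with Krt17 (permutation p = 0.00017, adjusted 0.0109), with rho = 0.85 (p = 0.0015, adjusted 0.0865). With Krt8 it had r = 0.82 (permutation p = 0.00191, adjusted 0.0475), with rho = 0.66 (p = 0.03, adjusted 0.239). Without WT/R249C replicate 3 and WT/WT replicate 1 these were 0.71 and 0.55, and within batch A 0.92 and 0.94. The log2 ribosomal sum was also added to the fit as a covariate. It was chosen after its correlation with Krt8 and Krt17 in these same libraries had been seen, so the fit restates that correlation and is no test of a cause. Krt8 then stood at 0.38 (-0.21 to 0.97) in the homozygotes and 0.33 (-0.15 to 0.82) in the heterozygotes, and 3 and 4 of the 8 lay above 0, with 43.9% and 42% of all genes above 0.

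**Figure D5:**
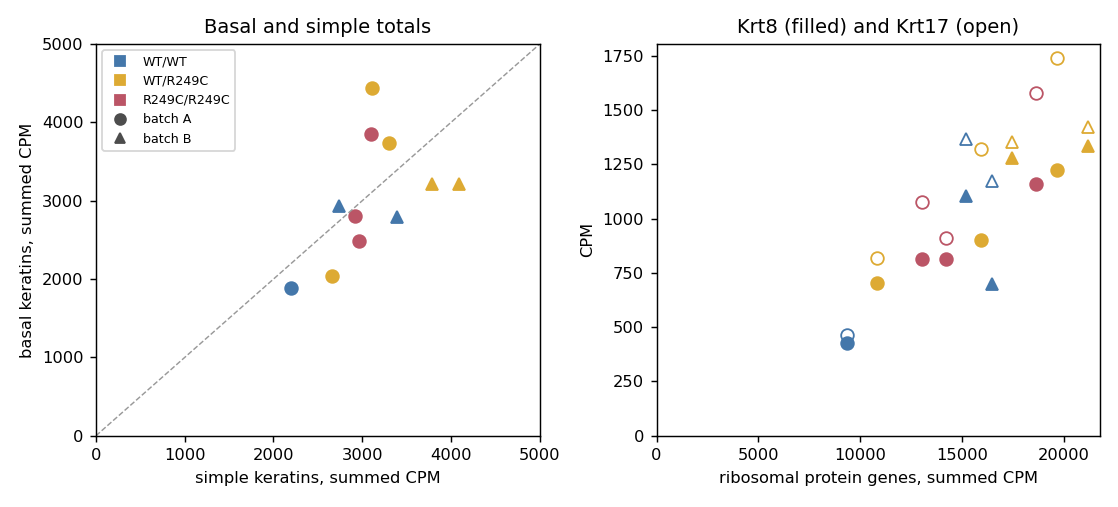
Left, summed CPM of the basal against the simple keratins, with a dashed line at equal sums. Right, Krt8 (filled) and Krt17 (open) against the summed CPM of 79 ribosomal protein genes. Colour gives genotype and shape gives batch. The left panel has genotypes intermixed, and in the right panel both keratins are lowest in WT/WT replicate 1, the library with the lowest ribosomal protein sum.

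Summed markers of thymic epithelial subsets were set against the 8 keratins in the same family of 128 relations, of which 7 passed adjustment by Pearson's r and none by rho as well. Markers of immature medullary epithelium, such as Ccl21a and Itgb4, had r = 0.88 with Krt5 (permutation p = 0.00039, adjusted 0.0125), with rho = 0.77 (p = 0.0076, adjusted 0.125), and r = 0.84 with Krt14 (permutation p = 0.00252, adjusted 0.0475), with rho = 0.50 (p = 0.121, adjusted 0.395). Within batch A these were 0.90 and 0.92, and without WT/R249C replicates 2 and 3 they were 0.64 and 0.39. Tuft cell markers had r = -0.82 with Krt5 (permutation p = 0.0026, adjusted 0.0475), with rho = -0.67 (p = 0.0275, adjusted 0.24). That r was -0.91 within batch A and -0.58 without WT/WT replicate 3 and WT/R249C replicate 2, whose tuft sums were 498 and 62.7 CPM. Markers of cortical epithelium had r = 0.70 with Krt18 (permutation p = 0.0149, adjusted 0.139) and rho = 0.50 (p = 0.123, adjusted 0.395). The r was 0.28 within batch A and 0.16 without WT/R249C replicates 4 and 5. In these libraries the cortical sum was 5607 and 4783 CPM, the highest of the series. With no gene called, 10 of 12 cortical markers lay above 0 in both comparisons with WT/WT, with medians of 0.61 in the homozygotes and 0.60 in the heterozygotes. So did 8 and 7 of 10 mature medullary, 5 and 6 of 9 immature medullary and 8 of 12 keratinocyte-type markers in each. Of 10 tuft cell markers only 4 and 3 lay above 0, with medians of -0.21 and -0.16. At an unadjusted edgeR p under 0.05 stood 4 and 4 cortical, 3 and 2 keratinocyte-type, 1 and 0 mature medullary and 0 immature medullary markers. At that p also stood 1 tuft cell marker in each comparison, and 3.21% and 3.48% of all genes. The part of cell composition in the keratin values was not tested.

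Of the other keratins, 44 of 45 listed were matched. They summed to 157 to 435 CPM per library, so that the 8 keratins held 93.4% to 98.0% of all keratin counts. The highest medians were those of Krt10, a suprabasal keratin of epidermis, at 41.7 CPM, and Krt20, a keratin of intestinal epithelium, at 41.2 CPM. In all, 31 of the 44 were at 0 in at least 1 library and 2 were at 0 in all. WT/R249C replicate 3, the shallowest library, had 28 of the 44 at 0, against at most 21 in any other. By edgeR 0 of the 40 tested were called in either comparison with WT/WT or, of 37 tested, in homozygotes against heterozygotes. By unadjusted p the first 4 were Krt10, Krt77, Krt34 and Krt86. Krt10 averaged 66.2 ± 23.6 CPM in WT/WT (SD, n = 3) and ran from 26.3 to 50.5 CPM in the heterozygotes, with overlapping groups and a log2 fold change of -0.75 (-1.44 to -0.06).

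The anchors and cross-linkers of keratin filaments, such as desmoplakin and plectin at desmosomes and hemidesmosomes, were tested for 22 of 23 genes. None was called by edgeR in any genotype comparison, and 1, the desmosomal cadherin Dsc2, had an unadjusted p under 0.05, in WT/R249C against WT/WT. Dsc2 averaged 133 ± 40.0 CPM in WT/WT (SD, n = 3), 194 ± 36.2 CPM in the 5 heterozygotes and 153 ± 5.88 CPM in the 3 homozygotes, a log2 fold change of 0.49 (0.04 to 0.95) in the heterozygotes. In R249C/R249C against WT/WT 7 of 22 anchors had a log2 fold change above 0, with a median of -0.16, and in WT/R249C 10 of 22 with a median of -0.08. The 8 keratins were all above 0 in the same fits. The summed anchors had r = -0.71 with Krt8 (permutation p = 0.0143, adjusted 0.139), with rho = -0.65 (p = 0.0373, adjusted 0.251). With Krt17 they had r = -0.68 (permutation p = 0.0178, adjusted 0.139), with rho = -0.76 (p = 0.00866, adjusted 0.125). Without WT/WT replicate 1 and WT/R249C replicate 2 these were -0.70 and -0.85, and within batch A -0.72 and -0.66. Evpl, which encodes envoplakin, Pnn and Dsg1a completed the first 4 by unadjusted p.

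Regulators of epithelial keratin genes were tested for 27 of 28 genes, and none was called by edgeR. Against WT/WT 14 lay above 0 in the homozygotes and 15 in the heterozygotes, with medians of 0.07 and 0.05. Grhl1, a grainyhead factor of epidermal differentiation, ran from 62.2 to 77.5 CPM in R249C/R249C and from 29.8 to 94.0 CPM in all 5 heterozygotes. Its log2 fold change against the 3 heterozygotes of batch A was 0.92 (0.39 to 1.44), with an unadjusted p of 0.00505 and an adjusted p of 1 in edgeR. Cebpb, a leucine zipper factor active in keratinocyte differentiation, ran from 56.6 to 87.6 CPM in WT/WT, above the 11.9 to 37.4 CPM of WT/R249C and the 8.48 to 49.3 CPM of R249C/R249C. All 3 wild-type libraries lay above the mutant ones, while the mutant groups overlapped each other. The share of all genes without overlap and lower was 1.83% in the heterozygotes and 4.68% in the homozygotes. The Cebpb log2 fold change in WT/R249C was -1.44 (-2.64 to -0.25), again not called. Foxn1, the factor that directs thymic epithelial development, averaged 136 ± 68.7 CPM in WT/WT (SD, n = 3) and 153 ± 20.2 CPM in R249C/R249C (n = 3). Its homozygous range, 131.8 to 172.1 CPM, lay within that of WT/WT, 58.1 to 188.9 CPM. The batch-adjusted log2 fold change was 0.81 (0.03 to 1.58), with an unadjusted edgeR p of 0.0433, and Foxn1 was not called. All homozygotes were of batch A, which held 1 WT/WT library. Sox2, the remaining gene of the first 4, was at most 0.371 CPM in WT/R249C.

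The genes whose log2(CPM + 1) followed a keratin most closely over the 11 libraries differed between the keratins. For Krt5 they were Tlr4, Ly6e, Hif1a, Stk19 and Gimap5, with r from 0.90 to 0.94. For Krt8 they included Cox6a1, Ppia, Crtac1 and Rpl15-ps3, with r from 0.93 to 0.96, and for Krt15 they included the ribosomal protein pseudogenes or paralogs Rpl38-ps1, Rps19-ps4, Rpl32l and Rpl34-ps2, with r from 0.90 to 0.91. For Krt7 they were Tada3, Plvap, Prss22, Oas1c and AU021092, with r from 0.85 to 0.90. Among all genes tested, Krt17 ranked 21 in likeness to Krt8 while Krt18 ranked 2353, and Krt14 ranked 35 in likeness to Krt5. These are descriptions over 11 libraries that share depth and composition.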

How the data were processed

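Total RNA of sorted thymic cells was sequenced in 11 libraries. Per the submitters' processing notes, which give no versions, FastQC, HISAT2 and StringTie were used with genome build mm39. The authors deposited a table of whole-number counts per gene, and per the file headers the batch A columns came from trimmed reads and those of batch B carry no such mark. Trimming and batch therefore cannot be told apart. The sources used here do not give the strand setting of the counting. Identifiers were matched to GENCODE M21 names (52073 of 56691 genes, holding at least 99.66% of the counts of each library). Because that annotation is on GRCm38, no gene coordinates were taken from it, only names, chromosomes, lengths and 50-base stretches shared between genes. Sequences of promoters are RefSeq's, on GRCm38.p6.

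CPM is a gene's count divided by the library total and scaled to a sum common to all libraries. Differences were tested in R 4.3.3 with edgeR 4.0.16 (robust quasi-likelihood fit, TMM scaling, filterByExpr). Tests were two-sided at a threshold of 0.05, with p-values adjusted by Benjamini-Hochberg across every gene tested. All 8 keratins passed the filter. Alternatives were DESeq2 1.42.0, limma 3.58.1 (voom), other scaling, no filter, no batch term, batches apart, a replicate block, other readings of the 2 contradicting labels, and each library left out. The ribosomal covariate, the relations to library properties and marker sums, the exon length and the sum with Krt8-ps were added after seeing the data. Correlations used permutation tests of 100000 resamples, two-sided, on log2(CPM + 1). The edgeR fit of R249C/R249C against WT/WT was also run on simulated counts with known changes, and the recovery of those changes is not reported here.

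The keratins, gene lists and tests were chosen with earlier results of these data known. The genes named are the 8 keratins, up to 4 members of each other list discussed with the smallest unadjusted p in a genotype comparison, and the 5 genes most like Krt5, Krt8, Krt15 and Krt7 by Pearson r, leaving out bare gene models, Xist and Y-linked genes. Of the genes most like Krt8 and Krt15, 1 each is not reported here. Marker lists overlap: Itga6 and Itgb4 are in the anchor and immature medullary lists, Trp63 in the regulator and immature medullary lists, and Foxn1 and Grhl1 each in a marker list too. Same-numbered WT/R249C and R249C/R249C libraries had correlations of their deviations of 0.13, 0.07 and 0.04, so the numbers were not taken to pair them.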

Additional observations from a re-analysis of the deposited data

Results flagged for a closer look

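In 3 of 24 measures tested over the 5 WT/R249C libraries with Dixon's criterion, 1 library lay far from the others. For separate measures chance gives about 1 in 20, but these include sums that share the same keratins, so the rates cannot be compared. Krt15 in WT/R249C replicate 2 was 138 CPM, against 89.5 to 97.7 CPM in the other heterozygotes. The sum of the 8 keratins in WT/R249C replicate 3 was 4692 CPM, against 6990.3 to 7546 CPM in the other heterozygotes. The type I chains of the same library, which are part of that sum, came to 3067 CPM, against 4355 to 4791 CPM. WT/R249C replicate 3 was also the shallowest library and had the lowest ribosomal protein sum of its genotype, 10809 CPM. The part of depth or library composition in these values was not tested.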

How the results depend on the processing

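No keratin passed adjustment in any of the recomputed fits of the comparisons, and limits come from 3 WT/WT libraries, 1 of them in batch A. The number of genes called by edgeR stayed at 0 with each library left out (0 to 0), while DESeq2 called 408 in R249C/R249C against WT/WT, 276 in WT/R249C against WT/WT, 33 between the mutants, 181 between batches and 810 in the interaction. The cause of this gap was not tested. With the ribosomal covariate, Krt5, Krt14, Krt15, Krt7 and Krt19 turned to -0.49, -0.11, -0.33, -0.17 and -0.71 in the homozygotes, and Krt5, Krt14, Krt15 and Krt19 to -0.26, -0.011, -0.14 and -0.60 in the heterozygotes. Between batches it turned Krt14, Krt15, Krt17 and Krt19 to -0.40, -0.51, -0.11 and -0.48. Limma voom gave -0.17 for Krt5, -0.15 for Krt7 and -0.35 for Krt19 in the homozygotes and -0.15, -0.068 and -0.14 for Krt14, Krt15 and Krt19 between batches. Without a batch term Krt7 was -0.16 and Krt19 -0.022 in the homozygotes, and without a genotype term Krt14 was -0.070 and Krt15 -0.037 between batches. In batch B alone Krt7 was -0.018 and Krt19 -0.032 in the heterozygotes. Between the mutants, Krt8 near 0 turned to 0.050 with other scaling and with DESeq2, 0.035 without the filter, 0.028 with the covariate and 0.072 in the fit of all 11 libraries, where Krt15 was 0.0042 and Krt17 0.053. The cause of these changes of sign was not tested. The numbers were not taken to pair the libraries, although each WT/R249C library of batch A correlated best with its own number. With 3 libraries per genotype, these correlations cannot show whether the libraries are paired. The replicate block gave Krt8 0.032 between the mutants, 1.30 in the homozygotes and 1.28 in the heterozygotes against WT/WT, and it left every genome-wide count of calls at 0.

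Leaving out each library in turn moved the homozygous log2 fold change from -0.11 to 0.26 for Krt5, -0.12 to 0.75 for Krt15, -0.26 to 0.18 for Krt7 and -0.17 to 0.46 for Krt19. For the heterozygotes it moved Krt7 from -0.014 to 0.38 and Krt19 from -0.035 to 0.34. Between the mutants it moved Krt5 from -0.54 to 0.20, Krt14 from -0.44 to 0.30, Krt15 from -0.71 to 0.17, Krt17 from -0.39 to 0.20, Krt8 from -0.22 to 0.27 and Krt19 from -0.50 to 0.43. Between batches Krt14 ran from -0.088 to 0.35 and Krt15 from -0.18 to 0.36. In the interaction Krt5 ran from -0.50 to 0.25, Krt14 from -0.64 to 0.11 and Krt19 from -0.90 to 0.052. Krt8 kept its direction against WT/WT in all 21 and 22 recomputed fits, from 0.37 to 1.30 and from 0.33 to 1.28, and so did Krt17, from 0.044 to 1.60 and from 0.0090 to 1.67, and Krt18, from 0.13 to 0.62 and from 0.063 to 0.45. The log2 ratio of basal to simple sums, restricted to Krt5 and Krt14 against Krt8 and Krt18, had means of -0.59, -0.60 and -0.52 in WT/WT, WT/R249C and R249C/R249C, against -0.13, -0.06 and 0.0013 with all 8. The correlation of Krt8 and Krt18 was 0.46 to 0.67 with a library left out and passed an unadjusted 0.05 only without R249C/R249C replicate 3.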
